A study of Drosophila melanogaster with 6 samples.

Results

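The CHD proteins are chromatin remodellers, enzymes that burn ATP to slide, space or exchange nucleosomes, and each joins a chromodomain pair to a helicase-like motor. In Drosophila melanogaster, Mi-2 is the motor of the repressive NuRD and dMec complexes, and Chd3 is its shorter relative, known to work outside NuRD. Chd1 acts in transcribed genes and loads the replacement histone H3.3, and kis (kismet) is a trithorax group gene that counters Polycomb silencing and acts in transcript elongation. These genes were followed in whole male larvae whose mothers had eaten either of 2 diets. The members are the 4 probe sets, of 18952 on the array, whose only gene symbol is Chd3, Mi-2, Chd1 or kis. Each gene had 1 such probe set and 0 further probe sets listed a member together with another gene. Chd3 was chosen because it differed between the diet groups in these arrays, so its difference is given as a description, with no test. Its relatives were chosen by family.

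The study asked how the sugar in a mother's food bears on expression in her offspring. For 7 days before mating, virgin w1118 females, a laboratory stock carrying a white mutation, were given food holding sucrose at 0.15 M (control) or at 1 M (high sucrose), and their mates were w1118 males on control food. In both groups the eggs were laid on control food, the offspring were kept at 25 C on control food moved to fresh food for the last 12 h, and RNA of whole male larvae of the last instar was hybridised to Affymetrix expression arrays. Each maternal diet had 3 arrays. The labels give the stage both as wandering (titles) and as the middle of the instar (characteristics), and the titles mention rearing on the foods; here the diets are taken as the mothers', after the characteristics.

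The deposited values are linear intensities, and array medians of the 18769 probe sets tested were 51.5 to 55.7. Array pairs differed by 0.177 to 0.206 within a group and by 0.180 to 0.234 between groups (mean absolute difference of log2 intensity + 16 per probe set), and control 1 differed less from high-sucrose 3 (0.180) than from either control (0.182 and 0.206). Markers of several larval tissues were bright. All 8 midgut, 5 fat body, 6 muscle, 10 haemocyte and 7 salivary gland markers measured lay above the array median on all 6 arrays. So did 18 of 25 testis markers, but only 6 of 10 neuroblast and disc, 3 of 9 neuron and 2 of 5 early germline markers. The number of arrays limits the precision. In whole larvae, fewer cells of a type and less RNA per cell cannot be told apart.

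Chd3, probe set 1630786_at, was dim on every control array and clearly measured on every high-sucrose array. Its intensity was 8.69, 10.4 and 8.75 on the control arrays, a mean of 9.28 ± 0.97 (SD, n = 3). It was 83.5, 110.4 and 165.2 on the high-sucrose arrays, a mean of 119.7 ± 41.6 (SD, n = 3). The groups lay far apart, with the lowest high-sucrose value at 83.5 and the highest control value at 10.4. The ratio of the means was 12.9. On the scale of log2(intensity + 16), used to damp dim probe sets, the high-sucrose mean lay 2.38 ± 0.20 (SE) above the control mean, with a control level near background, so that the value depends on the pseudocount. It ranked 1 of all 18769 probe sets by size with pseudocounts of 1 and 16, and 7 with 64. Spread was unequal, the SD being 10.5% of the mean for control and 34.8% for high sucrose. High-sucrose 3 had the highest value, and without it the difference was 2.15.

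**Figure D1:**
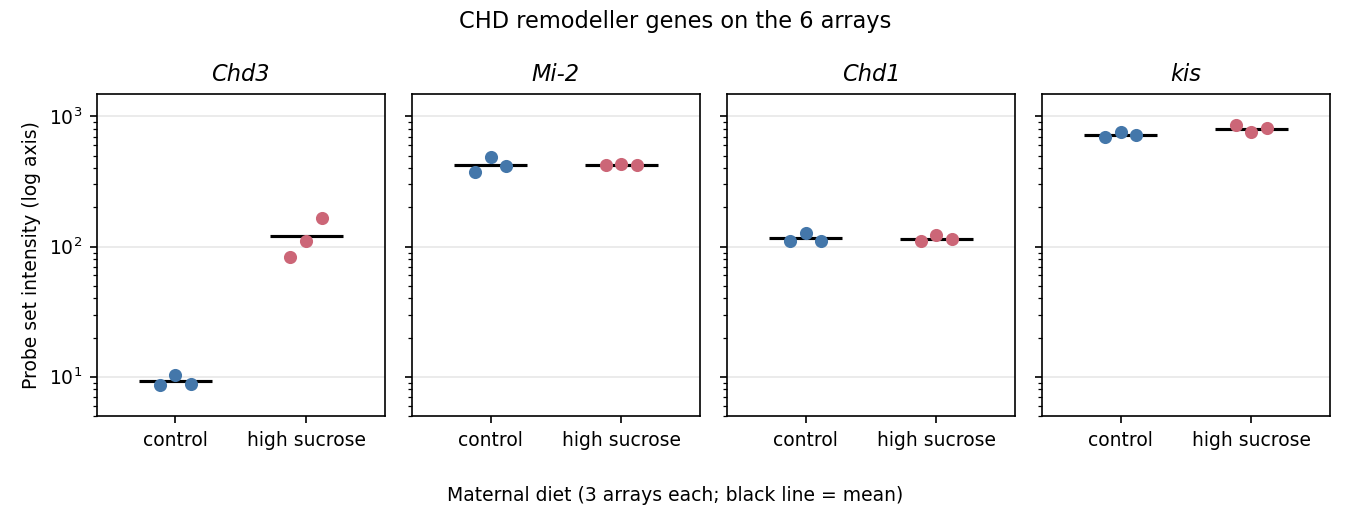
Intensity of the probe sets of Chd3, Mi-2, Chd1 and kis on a log axis, 1 point per array and a black line at each group's mean, by maternal diet. Chd3 spans 8.69 to 10.4 after the control diet and 83.5 to 165.2 after high sucrose; for the other members the groups overlap.

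The distance of Chd3 to background was read within each array. On the control arrays Chd3 stood between percentiles 15.3 and 19.8 of all tested probe sets of the same array. It lay under the lower quartile there, at 0.605, 0.778 and 0.613 times that quartile. On the high-sucrose arrays it stood at percentiles 58.3, 62.8 and 70.1, and at 6.83, 8.27 and 11.3 times the lower quartile. These places within an array do not depend on a scaling of whole arrays.

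A second yardstick was a list of 35 genes of adult reproductive tissues: eggshell and yolk genes of females and seminal fluid genes of males. Of these, 31 were measured, with array medians from 9.14 to 14.3, and 0 of them passed the test between diets (limma; 0 at an unadjusted p under 0.05 as well). On the control arrays 18, 13 and 18 of the 31 were at or above Chd3, so that its control level could not be set apart from that of these adult genes. On each high-sucrose array 1 of the 31 was at or above Chd3, and it was the same gene each time, the seminal fluid gene Acp95EF, at 224.0 to 312.6 over the 6 arrays. Chd3 lay at 6.43, 12.1 and 11.9 times the median of the list there. With a control level this near background, the ratio of 12.9 depends on the authors' background correction, which no source used here gives, and the log2 difference on the pseudocount: it was 3.50 with a pseudocount of 1 and 1.30 with 64.

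**Figure D2:**
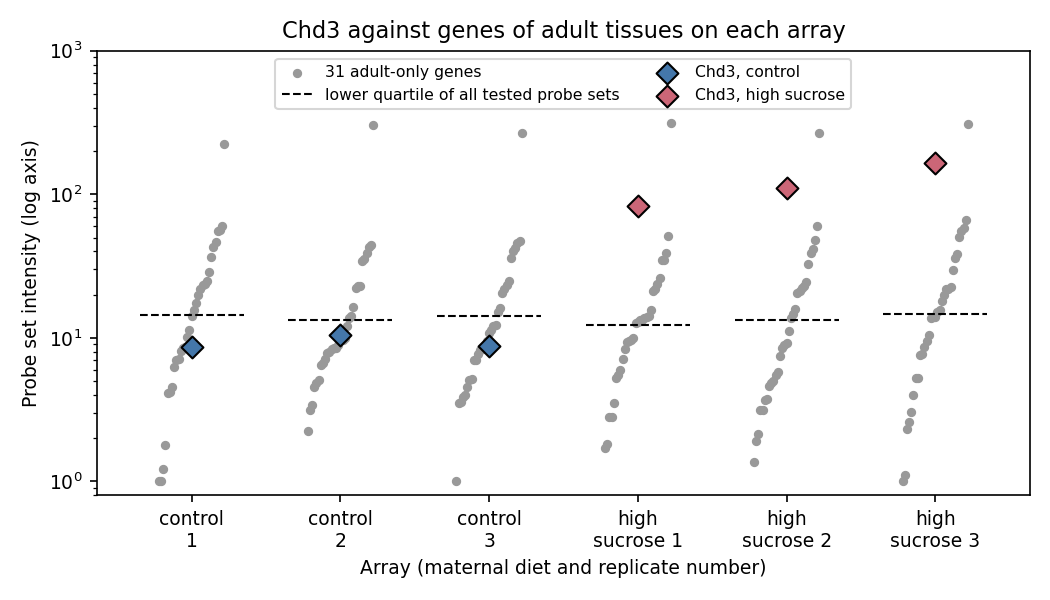
Intensity on a log axis on each of the 6 arrays: Chd3 (diamond), 31 genes of adult tissues (grey points, sorted) and the lower quartile of all tested probe sets (dashed line). Chd3 lies below the dashed line on the control arrays and above 30 of the 31 grey points on the high-sucrose arrays.

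Among probe sets as dim as Chd3 in control, the size of its high-sucrose values was rare. On all 3 control arrays 2178 probe sets, 11.6% of those tested, were no brighter than the highest control value of Chd3, and their median log2 difference was 0.025. Of these, 1, Chd3 itself, reached 83.5 on all high-sucrose arrays. The other that reached it on any was CG16772, chosen here after its values were seen, at 199.9 on high-sucrose 1 but 14.2 and 11.4 on the others. No probe set went the opposite way, from 83.5 or more on every control array to 10.4 or less on every high-sucrose array (0 of 18769). The contrast is the one that chose Chd3, so these counts describe it and support nothing.

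Mi-2, probe set 1640441_at, had nearly equal means on both diets. Its intensity was 371.0, 487.8 and 416.0 on the control arrays and 425.8, 433.4 and 421.8 on the high-sucrose arrays. The high-sucrose arrays all lay inside the range of the controls. The means were 424.9 ± 58.9 and 427.0 ± 5.91 (SD, n = 3 each), and the log2 difference was 0.015 ± 0.090 (SE; limma adjusted p = 0.963). Its 95% interval ran from -0.189 to 0.219, or 0.877 to 1.164 times on the scale of intensity + 16. Control 1 had the lowest and control 2 the highest value of the 6, and the difference was -0.075 without the first and 0.116 without the second. Mi-2 lies on the same chromosome arm as Chd3, with 82 annotated genes between them.

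Chd1, probe set 1639816_at, had an intensity of 109.9, 126.8 and 110.1 on the control arrays and 110.3, 122.1 and 113.4 on the high-sucrose arrays. The groups overlapped almost fully, with 1 higher array in each. The means were 115.6 ± 9.70 and 115.3 ± 6.14 (SD, n = 3 each), and the log2 difference was -0.0021 ± 0.091 (SE; limma adjusted p = 0.996). The 95% interval of the difference ran from -0.207 to 0.203, or 0.866 to 1.151 times. Its sign was not stable: it was 0.030 with quantile scaling, 0.025 with median centring and 0.028 with cyclic loess.

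The kis gene, probe set 1636513_a_at, whose suffix marks probes shared by several transcripts of 1 gene, was somewhat brighter after the high-sucrose diet without passing the test. Its intensity was 696.6, 759.9 and 718.5 on the control arrays and 855.9, 755.2 and 809.5 on the high-sucrose arrays. The groups overlapped only through control 2 and high-sucrose 2. The means were 725.0 ± 32.2 and 806.9 ± 50.4 (SD, n = 3 each), and the log2 difference was 0.15 ± 0.063 (SE; limma adjusted p = 0.372). The unadjusted limma p was 0.0403, and the 95% interval of the difference, which is unadjusted as well, ran from 0.008 to 0.292. Over the 15 alternative fits the difference lay between 0.108 and 0.213 and the adjusted p between 0.226 and 0.721.

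Of these 3 relatives, 0 passed at an adjusted p of 0.05 by limma, and 1, kis, had an unadjusted p under 0.05. Over all probe sets 0.623% passed, 0.0533% (10) as higher and 0.57% (107) as lower. The groups overlapped in all 3 relatives; they did not overlap in 18.5% of all probe sets. The percentiles within an array were as close as the intensities, at 83.2 to 86.5 for Mi-2, 62.2 to 65.0 for Chd1 and 90.2 to 92.0 for kis over the 6 arrays. Whether the difference of Chd3 exceeds theirs was not tested, since Chd3 was chosen for it.

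The RNA of other chromatin genes was then read from 6 lists, 61 measured genes of 80 listed. Of the 61, 0 passed by limma, against 0.623% of all probe sets, and 2 lay higher and 6 lower at an unadjusted p under 0.05, which 3.59% and 8.8% of all probe sets did. The median log2 difference of the 61 was 0.02, beside -0.034 over all tested probe sets, and the groups did not overlap in 10 of them, or 16.4%, beside 18.5% of all. The differences ran from -0.68 to 0.25, with 1 gene beyond 0.4 in size. Of 6 genes with several probe sets, the signs differed between probe sets in 2, and 0 of their probe sets passed.

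Of 9 genes listed as partners of Mi-2 in NuRD and dMec, 6 were measured and 0 passed, with a median of 0.09 and 4 above 0. MBD-like, MEP-1 and ttk were not measured. MEP-1 is the partner of Mi-2 in dMec, so dMec was read through Mi-2 alone. MTA1-like, a NuRD scaffold subunit, was at 338.7, 369.2 and 311.1 on control and 393.3, 382.0 and 390.4 on high-sucrose arrays. All its high-sucrose values lay above all controls, but the log2 difference of 0.19 ± 0.071 (SE) did not pass (adjusted p = 0.319). Caf1-55, a histone-binding subunit shared by several chromatin complexes, was at 864.2 ± 40.5 and 912.6 ± 36.9 (adjusted p = 0.62).

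All 10 of the other SNF2-family ATPases listed were measured, 0 passed, and their median was 0.035. Etl1 was at 98.4 ± 4.65 and 83.7 ± 4.79 (adjusted p = 0.422). The gene dom (domino), the motor that exchanges histone H2A variants, was at 467.7 ± 71.5 and 546.2 ± 60.5 (adjusted p = 0.469). Of 6 ISWI complex partners only 2 were measured, and their values were close: Nurf-38 was at 1684 ± 98.3 and 1623 ± 39.8 (adjusted p = 0.748) and E(bx), the large NURF subunit, at 347.1 ± 4.33 and 352.4 ± 14.3 (adjusted p = 0.925).

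Among the trithorax group, the activators to which kis belongs, 14 of 19 listed genes were measured, 0 passed and the median was -0.019. Trl, which encodes the GAGA factor, was at 457.3, 454.6 and 473.7 on control and 390.3, 433.1 and 392.4 on high-sucrose arrays. Its groups did not overlap, but the log2 difference of -0.18 ± 0.062 (SE) did not pass (adjusted p = 0.267). The gene osa, a subunit of the Brahma complex, was at 341.6 ± 62.6 and 406.7 ± 23.7 (adjusted p = 0.402).

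The Polycomb group, the silencers that kis counters, had 12 of 16 listed genes measured, 0 passing and a median of 0.017. Psc, a core subunit of Polycomb repressive complex 1, had the lowest difference of the 61 genes. It was at 65.5, 66.5 and 57.7 on control and 26.2, 47.2 and 29.0 on high-sucrose arrays. Every high-sucrose value lay below every control value, with high-sucrose 2 nearest to them. The log2 difference was -0.68 ± 0.16 (SE; adjusted p = 0.12), and without high-sucrose 2 it was -0.86 with an adjusted p of 0.0327, the only call on a gene of these lists in the alternative fits. The gene esc, which partners the histone methyltransferase E(z), was at 140.6 ± 29.4 and 106.8 ± 13.5 (adjusted p = 0.391).

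Of 20 genes of transcript elongation and histone H3.3 assembly, the processes in which Chd1 and kis act, 17 were measured and 0 passed, with a median of 0.02. Ctr9, a subunit of the Paf1 elongation complex, was at 530.7, 514.2 and 579.2 on control and 371.8, 428.2 and 457.4 on high-sucrose arrays. The groups did not overlap, and the log2 difference was -0.36 ± 0.083 (SE; adjusted p = 0.113). The histone chaperone gene asf1 was at 269.1 ± 5.04 and 237.0 ± 9.59 (adjusted p = 0.313).

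**Figure D3:**
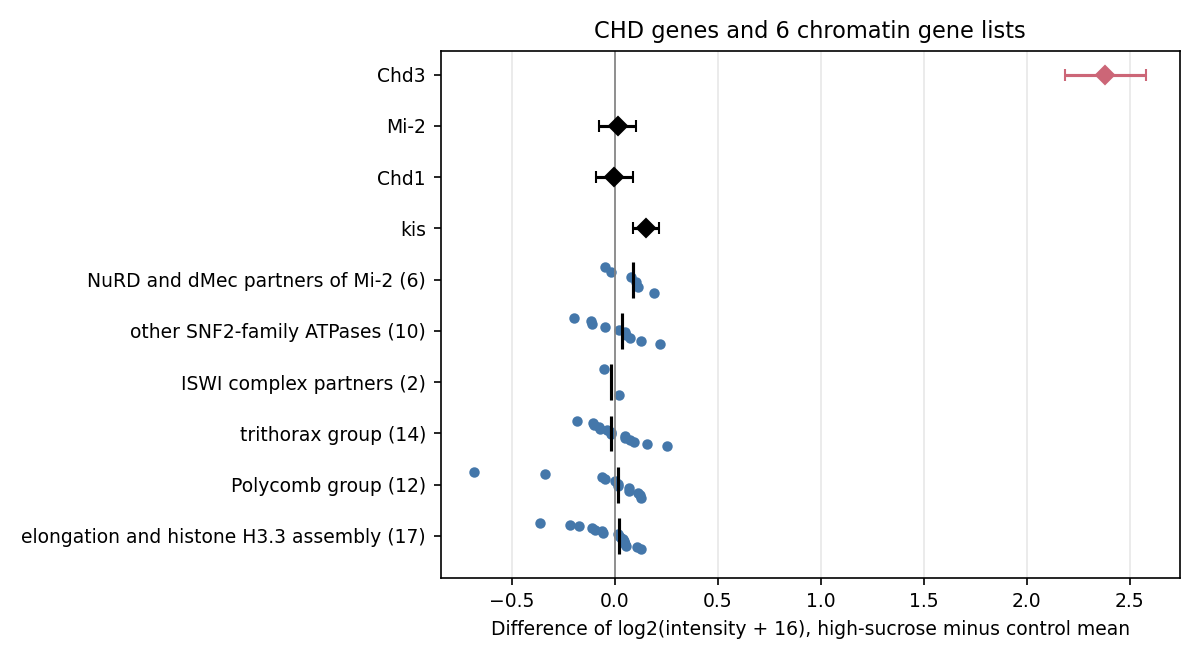
Difference of log2(intensity + 16), high-sucrose minus control mean, for the 4 CHD genes (diamonds with standard errors) and for the measured genes of 6 chromatin lists (points, number measured in parentheses, black line at the median). Chd3 lies at 2.38, while the 61 list genes lie between -0.68 and 0.25.

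The genes beside Chd3 on the chromosome had small differences. The 5 nearest measured genes on each side had log2 differences between -0.23 and 0.21. Of these 10, 0 passed by limma (lowest adjusted p = 0.537), beside 0.623% of all probe sets. At an unadjusted limma p under 0.05 the count was also 0, beside 3.59% higher and 8.8% lower of all probe sets. With 10 genes, counts of 0 cannot be told apart from those shares. The gene next to it, CG33062, was at 27.3, 15.6 and 24.6 on control and 19.4, 17.8 and 25.6 on high-sucrose arrays. CG14095, the nearest measured gene on the other side, was at 147.4, 105.1 and 117.0 and at 85.1, 91.7 and 132.2. In both the groups overlapped.

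Further out, ms(3)76Ba was at 37.2 ± 6.99 and 45.3 ± 3.54, pip (pipe), a sulfotransferase gene of embryonic patterning, at 37.4 ± 3.07 and 30.3 ± 4.35, CG32206 at 18.6 ± 8.57 and 14.7 ± 2.39, and fal at 205.8 ± 13.4 and 223.0 ± 15.1. On the other side CG14096 was at 32.7 ± 2.61 and 34.9 ± 11.4, CG32214 at 65.0 ± 14.5 and 70.1 ± 13.3, and the hairpin RNA genes hpRNA:CR32207 and hpRNA:CR33940 at 117.1 ± 11.1 and 122.6 ± 10.6, and 261.9 ± 23.4 and 241.0 ± 12.5. Of these 10 neighbours 1, pip, had groups that did not overlap, beside 18.5% of all probe sets. The 2 nearest measured genes on each side of Mi-2 (Papss, Usp32, Su(Tpl), Prp3), Chd1 (CG3165, CG9643, Bem46, okr) and kis (CG11617, Tbc1d15-17, CG13693, Rpp30) had differences from -0.05 to 0.08, -0.14 to 0.05 and -0.24 to 0.08. Of each 4, 0 passed by limma, beside 0.623% of all probe sets. At an unadjusted limma p under 0.05 there were 0 as well, beside 3.59% higher and 8.8% lower of all probe sets. So few genes cannot be told apart from those shares.

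**Figure D4:**
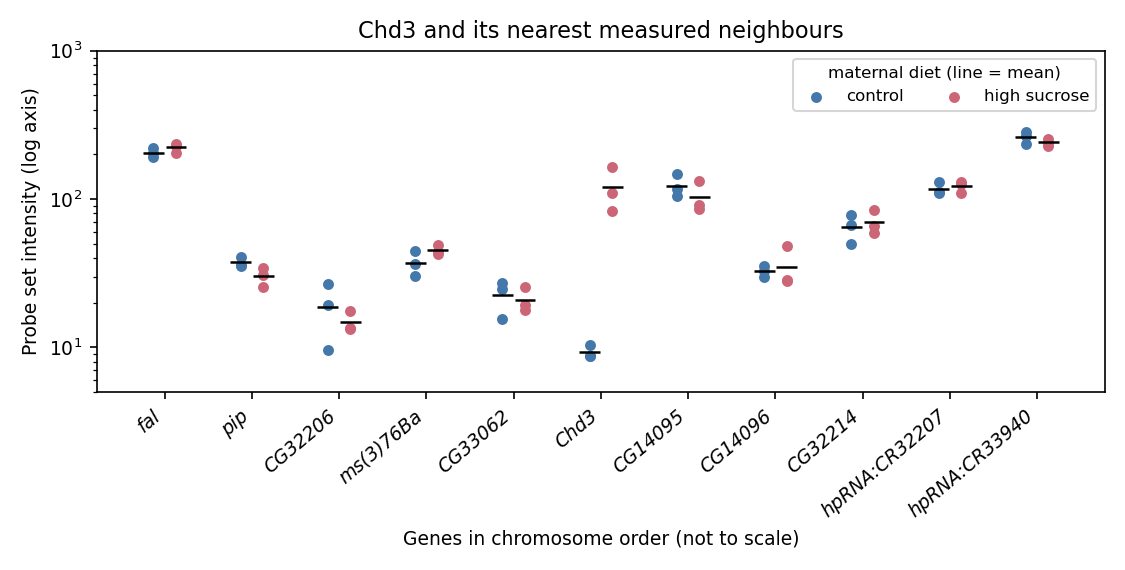
Intensity on a log axis of Chd3 and its 5 nearest measured genes on each side, in chromosome order and not to scale, with 1 point per array and a line at each group's mean. Chd3 moves from a mean of 9.28 to 119.7, and the neighbours' differences lie between -0.23 and 0.21 on the log2 scale.

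The genes whose profile over the 6 arrays was most like that of Chd3 were then ranked. Likeness was the root mean square difference between the 2 log2 profiles, each centred on its own mean, on which a flat profile lies 1.217 from Chd3. CG10073 was nearest at 0.357, with 66.4, 57.0 and 105.5 on control and 403.2, 284.1 and 522.7 on high-sucrose arrays. Next were alpha-Est2, a carboxylesterase gene, at 0.788, CG6106 at 0.808, CG14535 at 0.823 and CG1701 at 0.832. CG6106, CG14535 and CG1701 did not pass (limma adjusted p = 0.173, 0.0814 and 0.235). CG14535 and CG1701 were near background in control, with means of 5.87 and 11.8, and the groups of CG1701 overlapped. The means of alpha-Est2 were 273.3 and 518.3. The likeness follows the contrast that chose Chd3, so it is a description over 6 arrays.

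Markers of several cell types differed between the groups alongside Chd3. Of 25 testis markers 21 lay above 0 (58.9% of all tested probe sets lay below 0), with a median log2 difference of 0.194. Of the 25, 1 rose, beside 0.0533% of all probe sets. It was Mst98Ca, a sperm tail gene, which rose from 555.3 ± 23.3 to 731.6 ± 46.8 (limma adjusted p = 0.0357). At an unadjusted p under 0.05, 10 of the 25 lay higher and 0 lower, beside 3.59% and 8.8% of all probe sets. In 12 of the 25 every high-sucrose value lay above every control value, as it did in 5.96% of all probe sets. Mst98Cb was at 214.6 ± 12.97 and 298.5 ± 24.7 (adjusted p = 0.0518). The summed intensity of the testis list was 8772, 7336 and 8222 on control and 9349, 9374 and 9213 on high-sucrose arrays, so that the groups did not overlap; none of its genes lay below the lower quartile on all 6 arrays.

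The 5 early germline markers measured had sums of 489, 510 and 463 on control and 550, 460 and 705 on high-sucrose arrays; 0 of them passed (limma; 0 at an unadjusted p under 0.05 either). The high-sucrose sums followed bam, a gene of germ cell differentiation named after its values were seen, at 353.8, 246.9 and 513.3 there. Without bam the sums were 190, 177 and 208 on control and 196, 213 and 192 on high-sucrose arrays. The smallest p values among them were those of AGO3 (adjusted p = 0.536) and bgcn (0.632). The 8 midgut markers summed to 26230 to 26411 after the control diet and to 20804 to 22414 after high sucrose. Of them 2, Mal-A1 and Jon99Fi, fell (limma adjusted p = 0.00788 and 0.011), beside 0.57% of all probe sets. The 10 haemocyte markers had sums of 8295 to 9428 and 7877 to 8246, and 2, PPO3 and He, fell (limma adjusted p = 0.0125 and 0.0282). PPO1 and PPO2, named after their values were seen, were the brightest and so weighed most in these sums. PPO1 was at 2650 ± 223.5 and 2238 ± 91.5 and PPO2 at 2249 ± 335.6 and 1955 ± 112.4, and neither passed (limma adjusted p = 0.185 and 0.48). The haemocyte markers did not all lie on one side: 6 were below 0 and 4 above, among them Pxn, named after its values were seen, at 560.3 ± 42.6 and 644.6 ± 32.7 (adjusted p = 0.28). The 5 fat body markers had sums of 39935 to 42173 and 37703 to 38703, with 0 passing by limma. Of these, 3 were lower at an unadjusted limma p under 0.05, beside 8.8% of all probe sets. Gnmt (limma adjusted p = 0.0799) and Lsp2 (0.307) were the nearest to passing. The sums of neuron, neuroblast and disc, muscle and salivary gland markers overlapped between the groups. Of the 7 salivary gland markers 5 lay above 0 and 2 below, with a median log2 difference of 0.196, and 0 passed by limma. At an unadjusted limma p under 0.05, 2 lay higher and 0 lower, beside 3.59% and 8.8% of all probe sets. They were Sgs1, at 2710 ± 336.7 and 3354 ± 241.9 (limma adjusted p = 0.202), and Sgs5 (0.359). The part of any of these tissues in the Chd3 values was not tested.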

How the data were processed

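The arrays took biotin-labelled cRNA made from 2 ug of Tripure-extracted, DNase-treated total RNA, per the labels' protocols. The authors deposited 1 linear intensity per probe set and array; how probes were summarised, background-corrected and scaled is not stated in those sources, and no further scaling was applied. Groups follow the mothers' diet in the sample characteristics. After 183 control probe sets were set aside, 18769 were tested with limma 3.58.1 (R 4.3.3) on the scale of log2(intensity + 16) (linear model, empirical Bayes with intensity trend), with Benjamini-Hochberg adjustment over all of them and a threshold of 0.05. A value rose or fell only where it passed. The p-values measure the spread between arrays that the titles call biological replicates; the larvae per array are not stated in the labels. The fit was tested on simulated data.

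Symbols came from the platform's probe table: 13647 probe sets carried 1 symbol, and 0 needed updating from the RefSeq gene table (assembly GCF_000001215.4), which served for names and gene order only. A gene of a list was represented by its brightest probe set. Of 214 list entries 177 were measured, 3 through a synonym. The members and lists were chosen with earlier results of these data known. Genes are named by rule: all members, in each list those called and the 2 of smallest p, the 5 profiles nearest to Chd3, and the nearest measured neighbours. Outside this rule are Acp95EF and the genes marked as chosen or named after their values were seen. Probe sequences were not used here, so cross-hybridisation between Chd3 and its relatives was not checked. Alternatives were a replicate block, 3 scalings, 2 pseudocounts, a filter on dim probe sets, 2 variance settings, each array left out and, for lists, another choice of probe set.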

Additional observations from a re-analysis of the deposited data

How the results depend on the processing

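The difference of Chd3 was positive in all 15 alternative fits; it was 3.50 with a pseudocount of 1 and 1.30 with 64, a change that follows from a control level near background, and 2.15 to 2.58 with an array left out. Mi-2, Chd1 and kis passed in none of the 15. The signs of Mi-2 and Chd1 moved around 0 (-0.075 to 0.116 and -0.039 to 0.058). The number of probe sets called higher and lower was 10 and 107. It was 17 higher under quantile scaling, 23 under median centring and 17 under cyclic loess, and 1 higher and 3 lower without the intensity trend. With an array left out it was 2 to 9 higher and 11 to 154 lower, the fewest without control 2 (2 and 11). Leaving out control 3 gave 3 and 28, leaving out high-sucrose 3 gave 5 and 30, and leaving out high-sucrose 1 gave 3 and 39. The Polycomb list had 0 to 1 called lower with an array left out; the other lists had 0 called in all 16 alternatives. The causes were not tested.

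Arrays of the same replicate number did not deviate together (correlations of their deviations from the group means over probe sets of -0.072, 0.025 and -0.014), so the numbers were not taken as pairs. Between arrays of unlike number the correlations ran from -0.207 to 0.241. The highest were those of control 1 with high-sucrose 3 (0.241), control 2 with high-sucrose 1 (0.188) and control 3 with high-sucrose 2 (0.161). What these arrays share was not tested. With the replicate number as a block, 4 probe sets were higher and 59 lower, Chd3 differed by 2.38, and the adjusted p was 0.964 for Mi-2, 0.996 for Chd1 and 0.53 for kis. The arrays per group, 3, and intensities near background limit what could be measured, Chd3 in control included.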
